A study of Mus musculus with 6 samples.

Results

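The SR genes encode splicing factors named for a tail rich in arginine and serine. The genes described here are the 10 members Srsf1, Srsf2, Srsf3, Srsf4, Srsf5, Srsf6, Srsf7, Srsf9, Srsf10 and Srsf11, taken by symbol from a table of raw counts for 13024 genes. All 10 were in the table, and all 10 passed the filter on low counts (at least 10 counts in at least 3 libraries), as did 12879 genes in total. The counts came from RNA-Seq of polyA RNA from mouse lenses of E14.5 embryos, a stage in mid-gestation when fibre cells are elongating, with 3 pools from control embryos and 3 from Gata3 conditional knockout (CKO) embryos. Each pool held 10 lenses of 5 embryos, so a library is an average over animals. Libraries held 15157230 to 18811104 counts.

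The strain of both groups was a mix of C57BL/6 and FVB. The CKO embryos were Gata3 f/f and carried Pax6-Cre, and are labelled Gata3 -/-. Their Cre is driven by regulatory sequence of Pax6 in the precursors of lens and cornea, and it removes exon 4 of Gata3. The controls are labelled wild type, while the study names floxed littermates with no Cre. It gives them as Gata3 f/f in its methods and as Gata3 f/wt in its results. Cre was thus present in the CKO group alone, and its own effect cannot be told apart from that of the deletion. Gata3, the targeted gene, had 202, 386 and 156 counts in control replicates 1 to 3, and 910, 1064 and 894 counts in the libraries labelled CKO. Its counts were thus higher where the gene was targeted, with a log2 fold change of 1.72 (95% interval 0.79 to 2.65, adjusted p = 0.65 in edgeR and 0.00163 in DESeq2). A count over the whole gene also takes reads from the exons that Cre leaves in place and does not measure exon 4, so it checks the labels in neither direction, and the group is called by its label here.

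An SR protein binds RNA with an RNA recognition motif (RRM) at its front and binds other proteins through its arginine and serine rich (RS) tail. Bound to enhancer sequences in an exon, SR proteins recruit U1 and U2 small nuclear ribonucleoproteins to the splice sites on either side, and several members also act in mRNA export, translation and decay. Kinases of the SRPK family phosphorylate the RS tail in the cytoplasm, transportin 3 (Tnpo3) carries the protein into the nucleus, and CLK kinases release it from nuclear speckles, where splicing factors gather. Srsf2 encodes SC35, whose name is also used for the antibody that marks speckles; that antibody was later found to bind mainly the large speckle protein encoded by Srrm2. Fibre cells of the lens degrade their nuclei as they mature, a process that, per the study, culminates at a later stage than the one used here. The comparison asks whether the amount of SR mRNA differed between control lenses and lenses labelled CKO.

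The levels of SR mRNA overlapped between the groups for each of the 10 members. No member passed an adjusted p of 0.05, against 0 of 12879 genes tested, which is 0% (edgeR quasi-likelihood test, Benjamini-Hochberg adjustment over all genes tested). At an unadjusted p under 0.05 there were 0 members, beside 457 genes, or 3.55% of those tested. DESeq2 called 85 genes, or 0.66%, with 0 members among them, and limma voom called 0 genes. Groups that did not overlap in level were found for 0 members and for 1077 genes, or 8.36%. The members' fitted log2 fold changes (libraries labelled CKO against control) ran from -0.04 to 0.12 with a median of 0.04, and the median over all genes tested was 0.00. By direction alone 8 members were higher in the libraries labelled CKO and 2 lower, beside 50.6% of all genes tested that were higher. The sign was reversed for Srsf1, Srsf3 and Srsf4 without control replicate 2, for Srsf4 without CKO replicate 3, for Srsf6 without CKO replicate 2, and for Srsf11 without control replicate 1, control replicate 3 or CKO replicate 1. Each member's 95% interval included 0, and together the intervals reached from -0.22 to 0.35. The intervals describe the precision of each fitted value, and a p that misses the threshold does not show that the levels were equal. The background count of 457 genes rested on single libraries, and was 806 without control replicate 2, 1234 without control replicate 3 and 271 without CKO replicate 3, with 0 members among them each time.

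**Figure D1:**
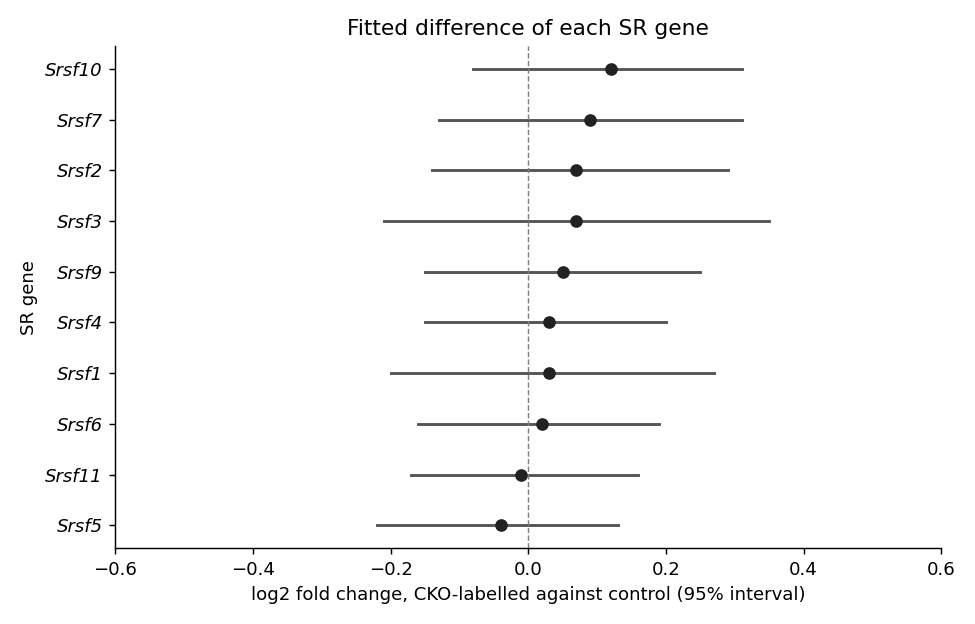
Log2 fold change of each SR gene between libraries labelled CKO and control libraries, 3 in each group; points are fitted values and bars are 95% intervals from the edgeR fit. All 10 bars cross the dashed line at 0, and the point farthest from it is Srsf10 at 0.12.

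Levels are given below as CPM (a gene's counts in proportion to the library total), scaled by the trimmed mean of M-values (TMM), which sets the libraries on a common scale after leaving out extreme genes. Srsf2 encodes a mainly nuclear protein that binds exons through a single RRM. Its CPM was 451, 426 and 504 in control replicates 1 to 3, and 475, 476 and 502 in CKO replicates 1 to 3. Control replicate 2 was the lowest and control replicate 3 the highest, so all CKO values lay within the range of the controls. The means were 460 ± 39.9 CPM in the control and 485 ± 15.1 CPM in the CKO (SD, n = 3). Its log2 fold change was 0.07 (SE 0.09, 95% interval -0.14 to 0.29, adjusted p = 1), which as a fold runs from 0.908 to 1.22.

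Srsf1, the founding member of the family, has a pair of RRMs and shuttles between nucleus and cytoplasm. It measured 727, 652 and 793 CPM in control replicates 1 to 3 and 722, 757 and 743 CPM in CKO replicates 1 to 3. The lowest and the highest library were both controls. The log2 fold change was 0.03 (SE 0.10, 95% interval -0.20 to 0.27, adjusted p = 1), and without control replicate 2 it was -0.03.

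Both genes start on chromosome 11, Srsf1 at chr11:88047373-88053755 on the plus strand and Srsf2 at chr11:116849901-116853094 on the minus strand (GRCm38, the assembly of mm10; GENCODE M21). The 250 bases before each start are shown because Srsf1 was the single member with a match to a word bound by GATA factors, and because Srsf2, the gene of SC35, holds both a CCAAT box and a TATA box. Sequences are from RefSeq on GRCm38.p6, 5′ to 3′ on the gene's strand, at chr11:88047123-88047372 for Srsf1 and chr11:116853095-116853344 for Srsf2, with each match in capitals.
Srsf1: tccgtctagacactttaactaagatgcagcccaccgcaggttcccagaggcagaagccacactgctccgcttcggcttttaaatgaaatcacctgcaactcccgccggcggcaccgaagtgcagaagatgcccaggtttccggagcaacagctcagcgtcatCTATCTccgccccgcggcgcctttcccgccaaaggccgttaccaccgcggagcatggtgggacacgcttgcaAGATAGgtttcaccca
Srsf2: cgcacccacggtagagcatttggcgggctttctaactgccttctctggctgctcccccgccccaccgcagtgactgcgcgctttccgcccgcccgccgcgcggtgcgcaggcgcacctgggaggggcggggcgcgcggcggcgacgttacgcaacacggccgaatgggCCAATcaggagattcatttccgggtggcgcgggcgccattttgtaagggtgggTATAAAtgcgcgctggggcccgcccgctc
The GATA words searched on both strands were AGATAA and, with G as the last letter in its place, AGATAG. Words that began with T in place of A were counted as well, namely TGATAA or, with G at the end, TGATAG. The CCAAT box was searched as those letters and the TATA box as TATAAA, both on either strand. No matches overlapped. The capitals in Srsf1 are AGATAG and its reverse complement, and those in Srsf2 are CCAAT and TATAAA. The Srsf1 window overlaps the first exon of a long noncoding RNA on the other strand (2010015M23Rik), and the Srsf2 window overlaps an exon of a transcript of Mfsd11 on the other strand. All 10 members had a window, 13 in all since Srsf4 and Srsf11 have further starts. A GATA word was in 1 of these 13 windows and in 26.5% of 32851 windows of the same length. CCAAT was in 3 of the 13 (Srsf2, Srsf3 and Srsf10) against 33.8%, and TATAAA in 2 of the 13 (Srsf2 and Srsf3) against 12.4%. Members' windows were rich in G and C, with a median of 68.4% and a range of 56.8% to 78%, beside a median of 52.4% over all windows. A match to these letters is a description of the window and does not show binding, and a window with no match lacks only these letters.

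Srsf3 and Srsf7 have a single RRM each, and both proteins act as adaptors that hand spliced mRNA to the export receptor Nxf1. Srsf3 measured 288, 244 and 323 CPM in control replicates 1 to 3 and 294, 283 and 323 CPM in CKO replicates 1 to 3. Its values spanned 0.41 on the log2 scale, the widest span of the 10 members, with control replicate 2 at the bottom. For Srsf3 the log2 fold change was 0.07 (SE 0.12, 95% interval -0.21 to 0.35), and it was -0.02 without control replicate 2. Srsf7, which also has a zinc knuckle, measured 341, 300 and 362 CPM in control replicates 1 to 3 and 343, 353 and 371 CPM in CKO replicates 1 to 3. All 3 CKO libraries lay above the control mean of 334 ± 31.5 CPM, but control replicate 3 lay above 2 of them. Srsf7 had a log2 fold change of 0.09 (SE 0.09, 95% interval -0.13 to 0.31).

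Srsf4, Srsf5 and Srsf6 are close relatives with a pair of RRMs. Srsf6 was the most even member, at 558, 568 and 547 CPM in control replicates 1 to 3 and 566, 579 and 548 CPM in CKO replicates 1 to 3. The span of Srsf6 was 0.08 on the log2 scale, and its log2 fold change was 0.02 (SE 0.07, 95% interval -0.16 to 0.19). Srsf5 measured 330, 324 and 304 CPM in control replicates 1 to 3 and 317, 319 and 293 CPM in CKO replicates 1 to 3. Replicate 3 was the lowest library of Srsf5 in each group, which is the reverse of Srsf2 and Srsf3. Srsf5 had a log2 fold change of -0.04 (SE 0.08, 95% interval -0.22 to 0.13), and of 0.06 when libraries were scaled by their totals alone. Srsf4 ranged from 124 to 141 CPM in the control and from 130 to 140 CPM in the CKO, with a log2 fold change of 0.03 (95% interval -0.15 to 0.20). Srsf9, a shorter relative of Srsf1, ranged from 68.7 to 74.6 CPM in the control and from 68.5 to 79.1 CPM in the CKO, with a log2 fold change of 0.05 (95% interval -0.15 to 0.25).

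Srsf10 and Srsf11 stand apart from the classical members, Srsf10 as a splicing repressor when it is dephosphorylated. Srsf10 measured 277, 249 and 295 CPM in control replicates 1 to 3 and 296, 294 and 301 CPM in CKO replicates 1 to 3. Its CKO values were close together, and control replicate 3 lay between them. With a log2 fold change of 0.12 (SE 0.08, 95% interval -0.08 to 0.31, adjusted p = 1) it had the largest fitted difference of the 10 members, and its unadjusted p of 0.199 was their smallest. Srsf11 ranged from 234 to 248 CPM in the control and from 233 to 250 CPM in the CKO. Srsf11 had a log2 fold change of -0.01 (95% interval -0.17 to 0.16), and of 0.09 with scaling by library totals. A further gene with an SR name in the table, Srsf12, is not among the members; it was looked up after the values were seen and measured 2.54 to 5.45 CPM in the control and 4.94 to 7.37 CPM in the CKO (log2 fold change 0.49, 95% interval -0.30 to 1.28).

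**Figure D2:**
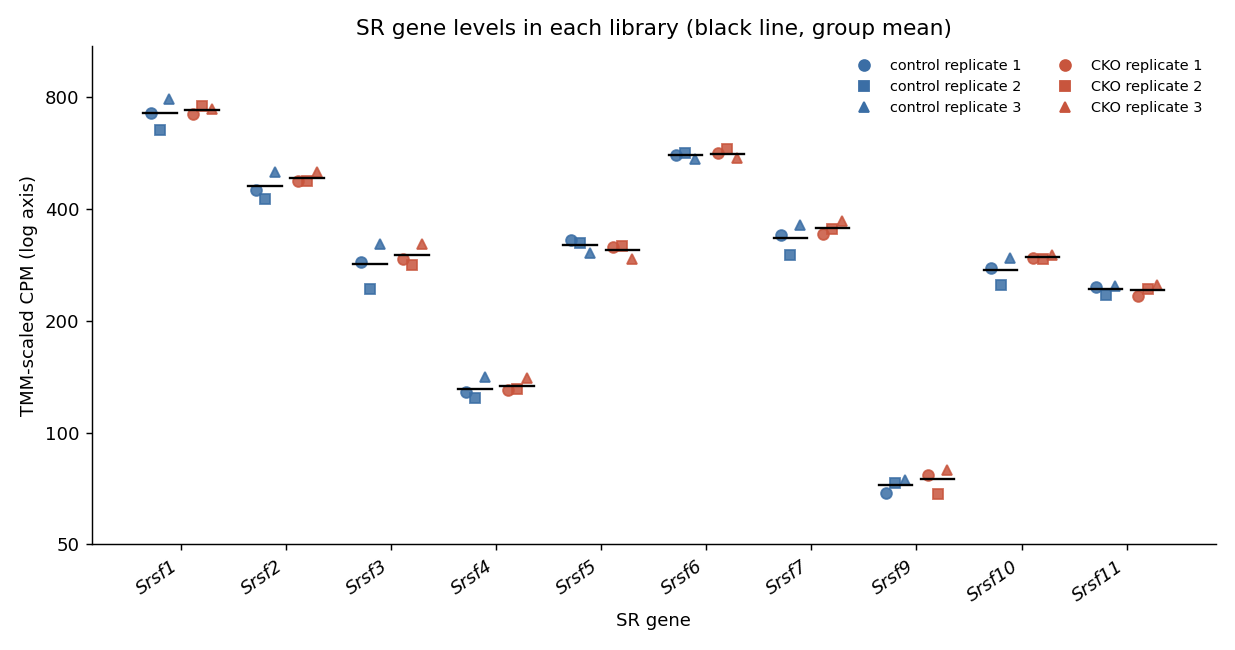
TMM-scaled CPM (log axis) of the 10 SR genes in each of 6 libraries; colours are groups, symbols are replicates and black lines are group means. The points of both groups overlap for all 10 genes, from 68.5 to 79.1 CPM in the CKO for Srsf9 up to 722 to 757 CPM in the CKO for Srsf1.

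Of the 10 members, 6 were lowest in control replicate 2 (Srsf1, Srsf2, Srsf3, Srsf4, Srsf7 and Srsf10), beside 31.6% of all genes tested that were lowest in that library and another 31.6% that were highest there. Control replicate 3 was the highest library for 4 members (Srsf1, Srsf2, Srsf3 and Srsf4), and CKO replicate 3 for another 4 (Srsf7, Srsf9, Srsf10 and Srsf11), beside 23.6% and 12.4% of all genes tested. In control replicate 2, log2 CPM minus the gene's mean over 6 libraries was -0.26 for Srsf3, -0.20 for Srsf7, -0.19 for Srsf10, -0.17 for Srsf1 and -0.15 for Srsf2. The same quantity was 0.04 for Srsf5 and 0.02 for Srsf6 in that library, so these members did not share the low value. The span from the lowest to the highest library had a median of 0.23 on the log2 scale over the members and of 0.44 over all genes tested. The SD of log2 CPM within the control had a median of 0.11 over the members (0.19 over all genes tested) and within the CKO a median of 0.05 (0.11 over all genes tested). These medians are not matched for level. The members had 1037 to 14891 counts a library, while the filter kept genes with as few as 10 counts in 3 libraries.

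Control replicate 2 also stood apart in its cell type markers. The lens fibre list (18 of 18 genes in the table, the most abundant being Cryaa) summed to 97643, 196496 and 67163 CPM in control replicates 1 to 3, and to 78246, 62125 and 56641 CPM in CKO replicates 1 to 3. All 18 fibre genes were lower in the libraries labelled CKO, 12 of them at an unadjusted p under 0.05, and the median of their log2 fold changes was -1.28. The proliferation list (10 of 10 genes, led by Top2a) summed to 2668, 2086 and 2882 CPM in control replicates 1 to 3, and to 2593, 2457 and 2692 CPM in CKO replicates 1 to 3. This list was thus lowest in control replicate 2 and highest in control replicate 3, as Srsf1, Srsf2, Srsf3 and Srsf4 were. The lens epithelium list (5 of 5 genes, led by Pax6) summed to 1284, 1394 and 1186 CPM in control replicates 1 to 3, and to 1119, 1141 and 1178 CPM in CKO replicates 1 to 3, so these sums did not overlap between groups. As a percentage of counts without TMM scaling, the list was highest in control replicate 1 (0.128%, and 0.121% in control replicate 2), and the groups overlapped. Its 5 genes were lower in the libraries labelled CKO with edgeR, 0 of them at an unadjusted p under 0.05, and the median of their log2 fold changes was -0.35. With each gene's log2 level centred over the libraries, the mean of this list was 0.36 in control replicate 2 and lay between -0.14 and 0.06 in the other libraries. The part of any of these cell types in the SR values was not tested, and in a pool of whole lenses fewer cells of a type and less RNA per cell cannot be told apart.

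The mesenchyme and pigment cell lists followed other libraries. The mesenchyme list (8 of 8 genes, led by Col1a2) was at 2082 CPM in control replicate 1 and 3671 CPM in CKO replicate 2, and between 293 and 628 CPM in the other libraries. Pigment cell genes (5 of 5, led by Pmel) were high in the same pair, at 309 and 313 CPM against 53.3 to 71.6 CPM elsewhere. Srsf9 was lowest in that pair of libraries, at 68.7 and 68.5 CPM, and the other 9 members did not have both as their lowest. Vessel genes (6 of 6, led by Kdr) summed to 219 to 312 CPM, with the highest sum in control replicate 1. Macrophage genes (5 of 6 in the table, led by Csf1r) summed to 45.1 to 86.3 CPM, highest in control replicate 2. With each gene's log2 level centred over the libraries, both lists had their highest mean in control replicate 2, at 0.46 and 0.60. Surface ectoderm genes (5 of 5, led by Krt5) summed to 35.9 to 140 CPM. Of the blood list, 6 of 7 genes were in the table. The globin genes Hba-a2, Hbb-bt and Hbb-bs stood at 0 in all 6 libraries, among 42 such genes in the table. A count of 0 does not show that globin RNA was absent from the pools, and the cause of these zeros was not tested. The 3 blood genes that passed the filter, led by Alas2, summed to 41.9 to 164 CPM with the highest value in control replicate 2. Median log2 fold changes (libraries labelled CKO against control) were -0.36 for vessel (5 of 6 lower) and -0.44 for macrophage genes (5 of 5 lower). The 3 blood genes were all lower, with a median of -0.44. Medians were 0.50 for mesenchyme (7 of 8 higher) and 0.34 for surface ectoderm (3 of 5 higher). Those of pigment cell (4 of 5 higher) and proliferation genes (8 of 10 higher) were 0.06 and 0.10. In edgeR 1 macrophage gene was at an unadjusted p under 0.05.

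**Figure D3:**
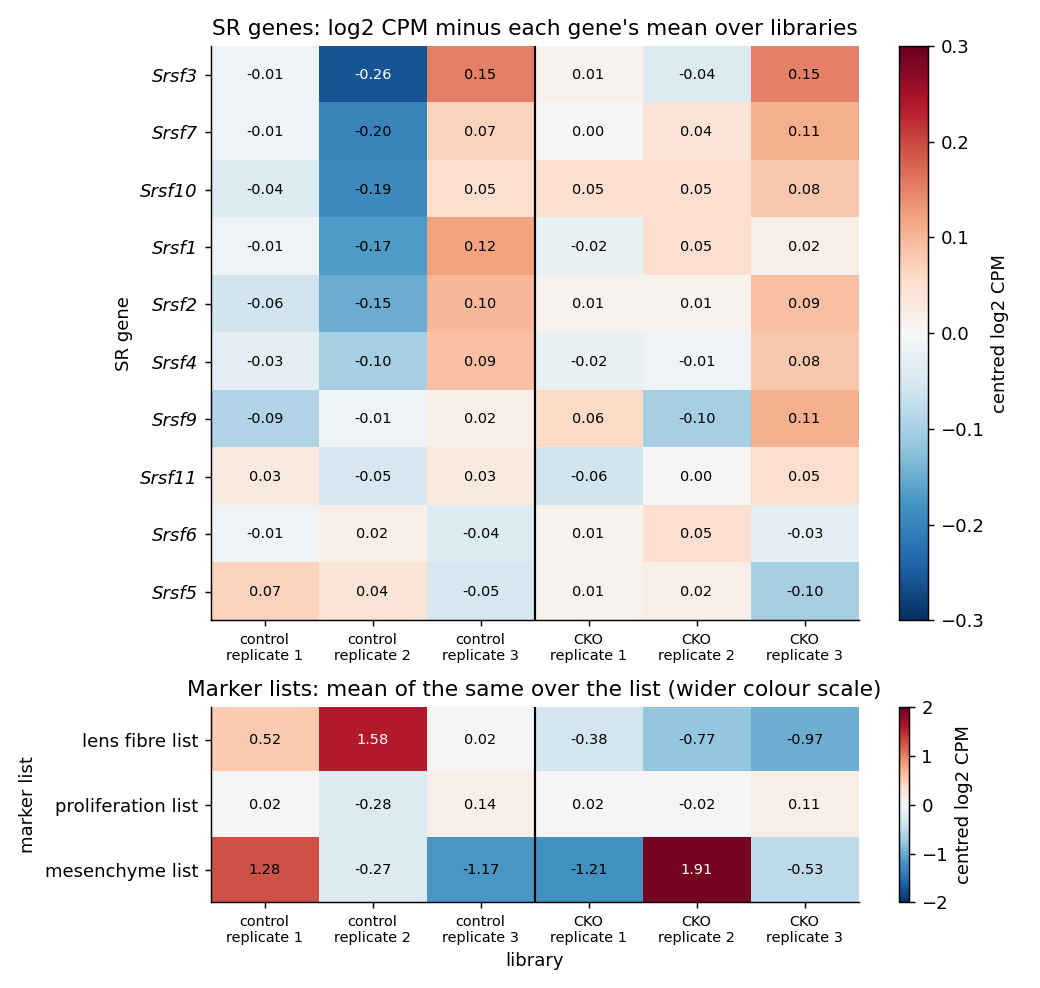
Log2 CPM of each SR gene minus its mean over the 6 libraries (upper panel), and the mean of the same quantity over 3 marker lists (lower panel, on a wider colour scale); columns are libraries, and the black line parts control from CKO. Control replicate 2 is low for Srsf3 (-0.26) and for the proliferation list (-0.28) and high for the lens fibre list (1.58).

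The 5 tested genes outside the family whose centred log2 CPM lay nearest to that of Srsf2 over the 6 libraries were Trp53bp2, Stx7, Clic1, Gnb1 and Mzt1. Their root mean square differences from Srsf2 were 0.0115, 0.0116, 0.0127, 0.0154 and 0.0185, beside a median of 0.171 over 12869 genes. The 5 genes were picked as the nearest, so the gap to the median and their likeness to Srsf2 follow from that choice. Trp53bp2 encodes a partner of p53, Stx7 a syntaxin of endosomes, Clic1 an intracellular chloride channel protein, Gnb1 a G protein subunit and Mzt1 a component of gamma-tubulin complexes. Trp53bp2, for example, measured 63.7, 59.5 and 70.8 CPM in control replicates 1 to 3, lowest and highest in the same libraries as Srsf2. Within the family Srsf4 was nearest to Srsf2, at 0.0303, and Srsf5 farthest, at 0.137.

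Summed over the 10 members, SR mRNA came to 3418, 3195 and 3591 CPM in control replicates 1 to 3, and to 3453, 3504 and 3550 CPM in CKO replicates 1 to 3. The means were 3401 ± 199 CPM in the control and 3503 ± 48.2 CPM in the CKO (SD, n = 3), and the range of the control held all 3 CKO libraries. The difference of the log2 sums was 0.04, smaller than the SD of 0.08 among control libraries. It was 0.15 with scaling by library totals, where the median of all genes tested was itself at 0.10, 0.01 without control replicate 2 and 0.08 without control replicate 3.

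To compare members with each other, CPM was divided by the exon length of the transcripts that GENCODE pairs with RefSeq. On this scale, given as the mean and SD over all 6 libraries, Srsf2 was the most abundant member at 249 ± 15.8 CPM per kilobase, and it ranked 97 of 12580 genes with a length. Srsf5 followed at 190 ± 8.3 and Srsf6 at 159 ± 3.58 CPM per kilobase. Srsf1 (132 ± 8.42 CPM per kilobase) and Srsf7 (125 ± 9.03 CPM per kilobase) differed by less than either SD. Srsf9 (63.2 ± 3.68 CPM per kilobase) and Srsf4 (58.8 ± 2.9 CPM per kilobase) were also neighbours in the order, a little farther apart than either SD. Srsf3 stood at 95.2 and Srsf11 at 75.2 CPM per kilobase. Srsf10, the lowest with this exon model at 48.8 ± 3.32 CPM per kilobase, still lay above 90.3% of the genes ranked.

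As a share of the family's counts per kilobase, which does not depend on scaling between libraries, Srsf2 made up 20.5% ± 0.818 of SR mRNA in the control and 21% ± 0.391 in the CKO (SD, n = 3). Srsf5 made up 16.4% ± 1.39 and 15.5% ± 0.896. The difference between the groups in the share of Srsf5, CKO minus control, was -0.946 percentage points, and it was -0.397 without control replicate 2, -1.73 without control replicate 3 and -0.429 without CKO replicate 3. In single libraries the share of Srsf5 was 14.8% in control replicate 3 and 14.4% in CKO replicate 3, and between 16% and 17.5% in the other libraries. Srsf10 was the 1 member whose shares did not overlap between groups, at 4%, 3.81% and 4.08% in control replicates 1 to 3 and 4.22%, 4.18% and 4.19% in CKO replicates 1 to 3. The exact two-sided permutation test over samples gave p = 0.10 for Srsf10 (n = 3 in each group), the smallest p that 3 against 3 allows, and 0.30 to 1 for the other members, with no adjustment for the 10 tests. With 10 members tested, 1 at p = 0.10 in this permutation test is the number that random labels give on average. The order of members by share, and thus by level per kilobase, depends on the exon model. With exons of all annotated transcripts, a choice made after seeing the data, Srsf2 was again first at 20.8%, but Srsf1 was next at 16.7% and Srsf5 was at 10.3%, and Srsf11 (3.74%) was the lowest in place of Srsf10. With counts not divided by length, Srsf1 was first at 21.2%, Srsf6 next at 16.3% and Srsf2 at 13.7%.

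**Figure D4:**
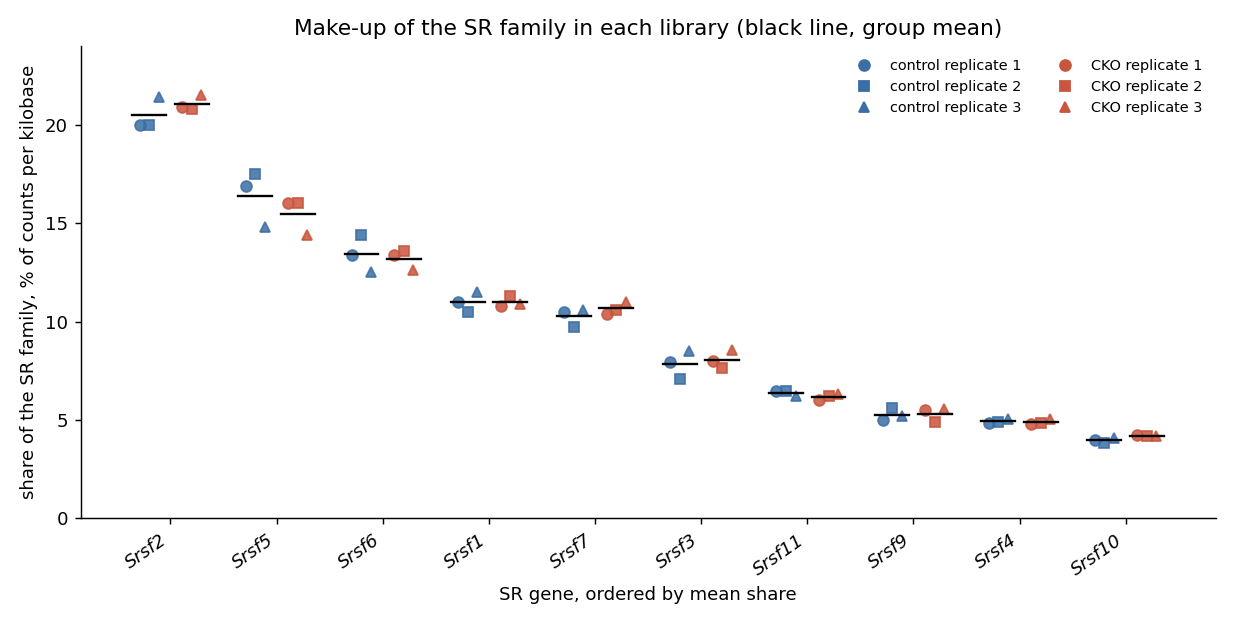
Share of each SR gene in the summed counts per kilobase of the family, in percent, in each of 6 libraries; colours are groups, symbols are replicates and black lines are group means. Srsf2 leads in all 6 libraries, at 20% to 21.5%, and Srsf5 is lowest in replicate 3 of each group.

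The gene counts add up all transcripts of a gene. SR proteins are known to limit their own amount by promoting the inclusion of poison exons, whose early stop codon sends the mRNA to nonsense-mediated decay. GENCODE lists at least 1 transcript of the nonsense-mediated decay type for 9 of the 10 members (all but Srsf10), and for 28.6% of 12282 protein-coding genes tested. A transcript with a retained intron is listed for 8 of the 10 (all but Srsf9 and Srsf10), against 59.3%. Srsf11 has the most transcripts of the members, 19, of which 11 retain an intron and 3 are of the decay type. Srsf2 has 6, of which 2 code for protein, 2 are of the decay type and 1 retains an intron. Whether the productive and the unproductive transcripts changed against each other was not tested, since gene counts do not separate them.

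Exons of other genes overlap some members on the opposite strand. In Srsf2, 460 bases (24.2% of its exon length) overlap Mettl23 and 288 bases (15.2%) overlap Mfsd11. In Srsf4, 1532 bases (67.9%) overlap the noncoding gene Gm12992. In Srsf1, 98 bases (1.76%) overlap the antisense gene Gm11508, which is not in the count table and so has no level here. The neighbours of Srsf2 and Srsf4 were far below these members in level, with control means of 23.2 ± 2.27 CPM for Mettl23, 26.2 ± 1.51 CPM for Mfsd11 and 4.61 ± 0.941 CPM for Gm12992 (SD, n = 3). The libraries kept strand, but the strand option of the counting is not given in the sources used here. Reads of these pairs may thus not have been kept apart, or may have been left out of both genes. The low levels of the neighbours do not show that the counts of Srsf2 and Srsf4 were complete. Reads left out would lower the level per kilobase and the share of these members.

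The genes that act with SR proteins gave no call either. Over 6 lists holding 92 genes, all 92 were tested, and 0 of them passed an adjusted p of 0.05 or an unadjusted p under 0.05. By direction alone 50 were higher and 42 lower in the libraries labelled CKO; the median of the 92 log2 fold changes was 0.01. The groups did not overlap for 6 of the 92 genes (Clk2, Srrm1, Son, Sfswap, U2af1 and Prpf6), to be read beside the 8.36% of all genes tested. Without control replicate 3, a pair of genes passed an unadjusted p under 0.05, Malat1 at a log2 fold change of -0.67 and Upf3b at -0.29, which is 2 of 92 beside 1234 of the 12862 genes tested in that setting.

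Among SR protein kinases and import factors, 7 of 10 were higher and 3 lower, and the median log2 value was 0.02. Clk2, a kinase that releases SR proteins from speckles, was at the top with a log2 fold change of 0.20 (95% interval -0.11 to 0.52). It measured 11, 10.1 and 10.7 CPM in control replicates 1 to 3 and 12.9, 12.5 and 11.1 CPM in CKO replicates 1 to 3, so the groups were separated by a narrow gap. Tnpo3, the import receptor, was at the bottom with -0.07 (95% interval -0.24 to 0.10). The log2 fold change was 0.02 both for Clk1 (95% interval -0.18 to 0.23) and for Srpk1, the main cytoplasmic SR kinase of many tissues (95% interval -0.13 to 0.16).

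SR-related and speckle proteins split evenly, with 9 of 18 higher, 9 lower and a median of 0.00. Srrm2, a scaffold of speckles, measured 1029, 1011 and 1095 CPM in control replicates 1 to 3 and 1065, 1010 and 854 CPM in CKO replicates 1 to 3. CKO replicate 3 was the low library, while the other 2 CKO libraries lay within or just under the range of the control. The log2 fold change of Srrm2 was -0.10 (95% interval -0.36 to 0.17). Son, the other speckle scaffold, measured 874, 872 and 874 CPM in control replicates 1 to 3 and 870, 782 and 792 CPM in CKO replicates 1 to 3, with a log2 fold change of -0.10 (95% interval -0.30 to 0.10). Its control values were nearly identical, and CKO replicate 1 lay just under them. Sfswap, a splicing regulator with an RS domain, was the lowest of the list at -0.12 (95% interval -0.27 to 0.03), and Rnps1, a subunit of complexes on exon junctions, the highest at 0.13 (95% interval -0.06 to 0.33).

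Both noncoding RNAs of nuclear bodies had negative fitted values, with wide intervals. The libraries were made from polyA RNA, and how fully they captured these noncoding RNAs was not tested. Malat1, which lies in speckles, measured 2365, 2973 and 1569 CPM in control replicates 1 to 3 and 2073, 1450 and 1496 CPM in CKO replicates 1 to 3. Control replicate 2 was the highest library and the groups overlapped. The log2 fold change of Malat1 was -0.46 (SE 0.26, 95% interval -1.08 to 0.16), and that of Neat1, the RNA around which paraspeckles form, was -0.24 (95% interval -0.93 to 0.45).

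The hnRNP family, which often opposes SR proteins at exons, had 16 of 23 genes higher and 7 lower, with a median of 0.03. Hnrnpa1, the classical antagonist of Srsf1, had the top value of 0.22 (95% interval -0.15 to 0.59), and Hnrnpf the lowest, -0.04 (95% interval -0.21 to 0.13). The core spliceosome list had 15 of 29 higher, 14 lower and a median of 0.01, from -0.11 for the U5 factor Prpf6 (95% interval -0.28 to 0.05) to 0.19 for the Sm protein gene Snrpg (95% interval -0.19 to 0.57). Of the nonsense-mediated decay list 3 of 10 were higher and 7 lower, with a median of -0.03. Its extremes were Upf3b at -0.16 (95% interval -0.52 to 0.19) and Smg8 at 0.10 (95% interval -0.12 to 0.32).

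**Figure D5:**
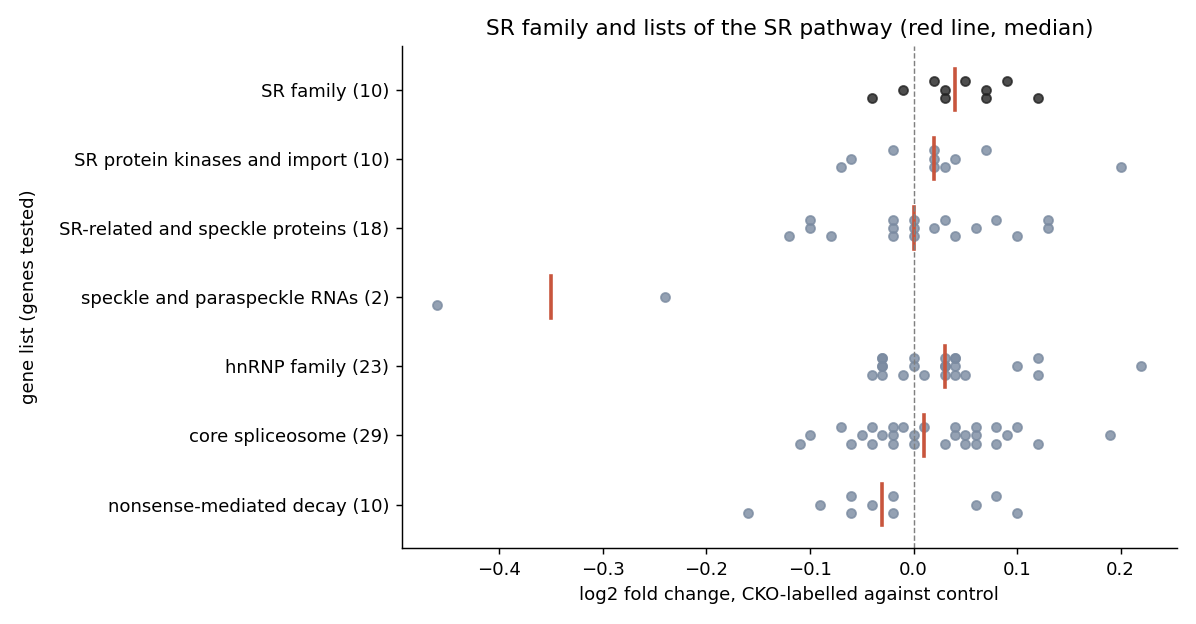
Log2 fold change (libraries labelled CKO against control) of each gene in the SR family and in 6 lists of the SR pathway; points are genes, red lines are list medians, and the number of genes tested is in brackets. Except for the noncoding RNAs Malat1 (-0.46) and Neat1 (-0.24), the points lie between -0.16 and 0.22.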

How the data were processed

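RNA-Seq of 6 lens pools was used, 3 labelled wild type (control) and 3 labelled Gata3 -/- (CKO); replicates carry the numbers of the sample titles (1 to 3), while the descriptions and table columns number the same CKO libraries 2 to 4. Per the submitters' processing notes and the methods of the study, the authors trimmed reads with Trim Galore, aligned them to mm10 with TopHat2 2.0.13 and counted them per gene with HTSeq 0.6.1. The values deposited are raw counts, whole numbers with no normalization. Libraries held 15157230 to 18811104 counts, and for the SR genes (1037 to 14891 counts a library) the spread among pools sets the precision.

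A gene was kept when 3 or more libraries had 10 or more counts. TMM scaling was followed by the quasi-likelihood test of edgeR 4.0.16, with robust fitting, in R 4.3.3. Benjamini-Hochberg adjustment covered all genes tested, with a threshold of 0.05. Standard errors and 95% intervals are of Wald type, from the same fit. Log2 CPM used a prior count of 1. Shares were compared by an exact permutation test. Adjustment over the members and a test of their sum were planned and are not given, so the p-values of the shares are unadjusted. Alternatives were DESeq2 1.42.0, limma voom (limma 3.58.1), other scaling and filters, the replicate number as a block, and leaving out each library. Exon lengths and positions came from GENCODE M21, with 12580 of 12879 tested genes having a length. Python 3.11.15, pandas 2.3.3 and, for plots, matplotlib 3.10.9 were used.

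Genes named are the 10 members; Gata3; from each pathway list its highest and lowest gene and any at an unadjusted p under 0.05; Srrm2, Son, Malat1, Clk1 and Srpk1; and the 5 genes nearest to Srsf2. Genes whose groups did not overlap, Srsf12, genes leading a marker list and overlapping neighbours were added later. The markers of 1 further cell type are not reported here. The members and lists were chosen with earlier results of these data known.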

Additional observations from a re-analysis of the deposited data

How the results depend on the processing

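In all 140 refits of the 10 SR log2 fold changes (14 alternatives for each gene), no member passed an adjusted p of 0.05, and the lowest adjusted p was 0.55. The sign was kept in 130. It was kept in all 14 for Srsf2, Srsf7, Srsf9 and Srsf10, whose sizes still moved. With library totals alone, Srsf5 was at 0.06 and Srsf11 at 0.09, the median of the members at 0.14 and their summed log2 difference at 0.15; that setting moved the median of all genes tested to 0.10 and the genes higher among those at an unadjusted p under 0.05 from 36.8% to 69.1%. When each library was left out in turn, log2 fold changes ran from -0.03 to 0.10 for Srsf1, -0.02 to 0.17 for Srsf3, -0.01 to 0.08 for Srsf4, 0.00 to 0.04 for Srsf6, -0.03 to 0.02 for Srsf11, 0.03 to 0.14 for Srsf2, -0.08 to 0.00 for Srsf5, 0.03 to 0.15 for Srsf7, 0.01 to 0.11 for Srsf9 and 0.07 to 0.17 for Srsf10. The median of the members ran from 0.01 (without control replicate 2) to 0.09 (without control replicate 3), and their summed log2 difference from 0.01 to 0.08.

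Genes called numbered 85 with the DESeq2 Wald test, 1 with library totals alone and 0 to 1 with a library left out. Genes at an unadjusted p under 0.05 ran from 271 (without CKO replicate 3) to 1234 (without control replicate 3), with 806 without control replicate 2, where 60.7% were higher; pathway genes at that threshold ran from 0 to 2. Gata3 passed in DESeq2 alone (adjusted p = 0.00163; 0.06 to 1 in the other alternatives). Of 80 recomputed differences in share, 69 kept their sign. Leaving out each library gave -0.289 to 0.236 percentage points for Srsf1, 0.301 to 1.01 for Srsf2, -0.162 to 0.552 for Srsf3, -0.11 to 0.0206 for Srsf4, -1.73 to -0.397 for Srsf5, -0.669 to 0.258 for Srsf6, 0.118 to 0.565 for Srsf7, -0.093 to 0.257 for Srsf9, 0.156 to 0.289 for Srsf10 and -0.284 to -0.116 for Srsf11.

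With the replicate number as a block, 0 genes were called, 516 were at an unadjusted p under 0.05 and the median of the members was 0.04; no call changed. Same-numbered libraries share only a number, which for the CKO differs between titles and descriptions: the correlations of their deviations from the group means, across genes, were -0.49, 0.09 and 0.44, and only replicate 3 correlated best with its own number in both groups. With 3 pools a group, the intervals show how precisely each difference was measured and are not limits of detection. The cause of each shift was not tested.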
